A study of Mus musculus with 4 samples.

Results

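Regulatory T cell genes were examined as a set of 10 genes of the deposited table, chosen by name with earlier results of these data known. The set holds Foxp3, Ikzf2, Ikzf4, Lrrc32, Gpr83, Izumo1r, Nt5e, Tgfb1, Ebi3 and Capg. All 10 were found once each among 54532 genes, and 8 of them passed the level filter of the test (a mean of at least 1 FPKM over the 4 libraries). Foxp3 and Ikzf2 lay below it, so their values are given without a test.

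The libraries came from spleen CD4+ T cells of WT mice, naive when the cultures began and polarized for 3 days towards T follicular helper (Tfh) cells, the helpers of antibody-making B cells. In the 2 control libraries the treatment is given as None, and the 2 others came from cultures with dimethyl fumarate (DMF), an ester of fumaric acid known as an activator of the Nrf2 protein. All 4 libraries share the cell source, the genotype and the Tfh conditions. The labels give no dose of DMF and no strain or age of the mice. They do not say whether replicates are separate mice or cultures, so p-values measure only the spread between these libraries, which may be technical.

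Regulatory T cells restrain other T cells. Their program is set by the forkhead factor FOXP3, which works with the Ikaros family proteins Helios (Ikzf2) and Eos (Ikzf4). GARP (Lrrc32) holds latent TGF-beta at the cell surface, the ectoenzyme CD73 (Nt5e) turns AMP into adenosine, and EBI3 is a chain of the cytokines IL-27 and IL-35. Activated helper T cells can share several of these transcripts, and B cells and myeloid cells express Ebi3, Nt5e, Tgfb1 and Capg too.

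Expression was measured in FPKM, a read level corrected for gene length and library size, which allows levels of different genes to be set side by side. Whole reads recovered from these values came to 15900118 to 17516953 per library. Control replicate 2 stood apart: log2 differences between the controls had an SD of 0.74 over genes, against 0.32 for the DMF libraries. Its values also ran with gene length: relative to the mean of the 4 libraries on the log2 scale, the fitted trend stood at 0.41 for genes of 1000 bp and at -0.38 for genes of 10000 bp. Long genes such as Ikzf2, Nt5e and Ikzf4, and Ebi3 as the shortest member at 1154 bp, are therefore read with that library in and out. Over all 12166 tested genes limma called 0 (0%) at an adjusted p under 0.05, with 1150 at an unadjusted p under 0.05 and a lowest adjusted p of 0.128. Without control replicate 1 the same test called 61.0% of all tested genes, with the spread estimated from the DMF pair alone, and without control replicate 2 it called 8.28%. It called 0.0658% without DMF replicate 1 and 0.0493% without DMF replicate 2. A pass of a single gene in those fits is read against these shares.

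Lrrc32, Ikzf4 and Foxp3 lay below both controls in each DMF library, with control levels 25.0, 7.25 and 3.83 times those of the DMF libraries. Capg and Gpr83 also lay below both controls, by far less, at 1.60 and 1.24 times. Izumo1r, Tgfb1, Ebi3, Nt5e and Ikzf2 overlapped between the groups. In no member did the DMF libraries lie above both controls. In all, 5 of the 10 members lay below both controls, where 19.7% of all genes with a read did so. Of the 8 tested members it was 4, where 26.8% of all tested genes did so. The test called none of the 8 tested members (limma, lowest adjusted p = 0.160, for Lrrc32), and 2 of them, Lrrc32 and Ikzf4, had an unadjusted p under 0.05, as did 9.45% of all tested genes. Both passed the level filter only through the controls, as their DMF means were 0.249 and 0.784 FPKM. A gene admitted in that way can only come out lower with DMF, so these 2 p-values add no support. The median difference of the 8 tested members, these 2 included, was -0.43 on the log2(FPKM + 1) scale, DMF minus control, against -0.01 over all tested genes. Without control replicate 2 the member median was -0.25, against 0.01 over all tested genes. Without control replicate 1 it was -0.76, against -0.05. Below the 1 remaining control lay 7 and 8 members in that order, a weaker condition than lying below both controls. The share of all tested genes that met it was not counted.

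**Figure D1:**
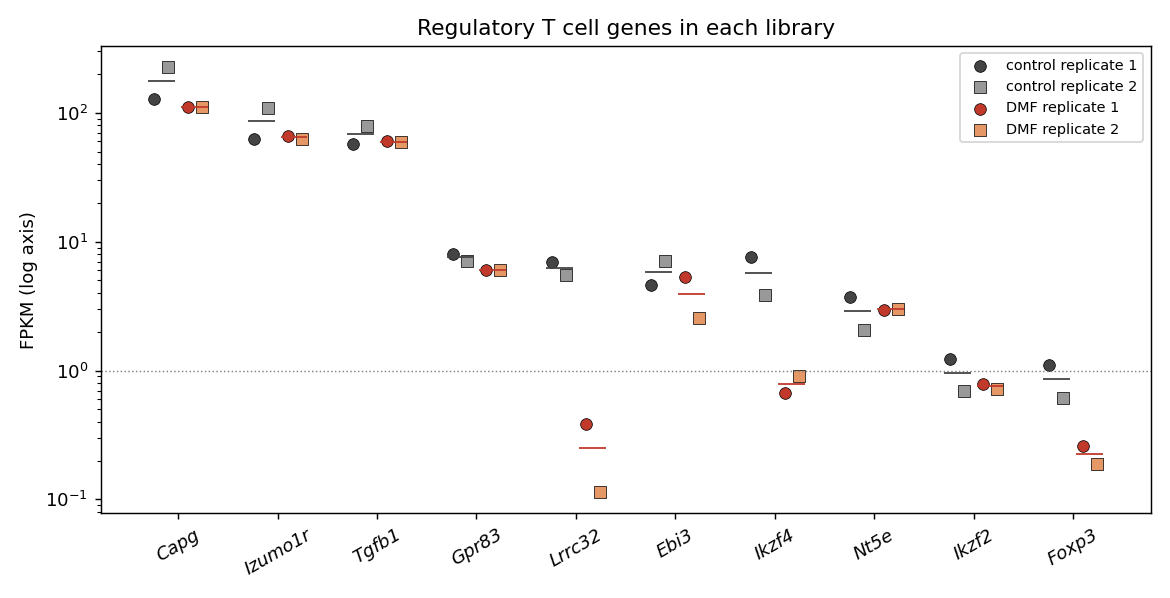
FPKM on a log axis of the 10 regulatory T cell genes in each library, in order of their control mean; points are libraries, short lines are group means and the dotted line marks 1 FPKM. Lrrc32, Ikzf4 and Foxp3 show a gap between the groups, while Tgfb1 and Izumo1r lie at 57.5 to 109 FPKM in all 4 libraries.

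Foxp3 is the gene that defines the lineage, and it was the least abundant member in controls. The table places it on chromosome X, 7579676 to 7595243, plus strand (ENSMUSG00000039521), a span that is not the same as in GENCODE M21. For the other 9 members the span is the same as in that annotation of GRCm38. Foxp3 was at 1.10 and 0.612 FPKM in control replicates 1 and 2 and at 0.260 and 0.188 in DMF replicates 1 and 2. These values rest on 78, 34, 19 and 14 reads. Counting error alone gives exact Poisson 95% intervals of 0.424 to 0.855 FPKM for the lower control and 0.157 to 0.406 for the higher DMF library, which do not overlap. The control mean was 0.858 ± 0.347 FPKM and the DMF mean 0.224 ± 0.0511 (SD, n = 2). On the log2(FPKM + 1) scale, which compresses such low values, the difference was -0.59, and it was -1.52 with a pseudocount of 0.1. Where every detected gene was tested, with no filter on low values, Foxp3 did not pass (limma adjusted p = 0.590). An exact two-sided permutation test of 2 libraries against 2 cannot give a p below 0.333.

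Cd4, the coreceptor of helper T cells, gives a scale within each library. The FPKM of Foxp3 came to 0.863% and 0.585% of that of Cd4 in control replicates 1 and 2, and to 0.253% and 0.187% in DMF replicates 1 and 2. Against Il2ra, which encodes the interleukin 2 receptor chain CD25 that regulatory T cells carry at high levels, the shares were 0.651%, 0.436%, 0.268% and 0.199% in the same order. Control levels of Il2ra and Cd4 were themselves 1.62 and 1.14 times those of the DMF libraries, so neither is a fixed scale. Both ratios separated the groups, with the DMF libraries lower. In bulk RNA a smaller number of Foxp3-expressing cells and less Foxp3 RNA per cell cannot be told apart. Of the 4577 bp of Foxp3 exons in GENCODE M21, 853 bp are shared with Flicr, a long noncoding RNA at the same locus. Flicr was at 0.553 and 0.422 FPKM in control replicates 1 and 2 and at 0.245 and 0.105 in DMF replicates 1 and 2. How the counting assigned reads in the shared exons is not stated, so Flicr is no separate measurement.

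RefSeq promoter sequences (GRCm38.p6) matched 7 of the 10 members, with 2 starts for Foxp3; Ikzf2, Ikzf4 and Lrrc32 had none. The 250 bases before both Foxp3 starts are shown because Foxp3 defines the set and lay lower with DMF. Those of Gpr83 and Izumo1r are shown because these genes are neighbours on chromosome 9 whose levels differ. Each is written 5′ to 3′ on the strand of its gene. Capitals mark GCGTG, the core recognised by the aryl hydrocarbon receptor, and TTCNNNGAA, the STAT motif, on either strand (GCGTG on the other strand reads CACGC).
Foxp3 first start, chrX:7579426-7579675, plus strand: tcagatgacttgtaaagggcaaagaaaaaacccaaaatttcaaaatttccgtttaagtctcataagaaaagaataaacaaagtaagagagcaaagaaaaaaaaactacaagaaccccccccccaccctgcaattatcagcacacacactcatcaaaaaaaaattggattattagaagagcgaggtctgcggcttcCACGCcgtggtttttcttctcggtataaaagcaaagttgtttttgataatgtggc
Foxp3 second start, chrX:7580233-7580482, plus strand: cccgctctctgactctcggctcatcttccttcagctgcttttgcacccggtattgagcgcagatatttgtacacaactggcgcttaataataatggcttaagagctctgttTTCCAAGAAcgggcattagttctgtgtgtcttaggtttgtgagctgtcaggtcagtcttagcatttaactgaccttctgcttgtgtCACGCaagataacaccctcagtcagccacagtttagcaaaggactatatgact
Gpr83, chr9:14859960-14860209, plus strand: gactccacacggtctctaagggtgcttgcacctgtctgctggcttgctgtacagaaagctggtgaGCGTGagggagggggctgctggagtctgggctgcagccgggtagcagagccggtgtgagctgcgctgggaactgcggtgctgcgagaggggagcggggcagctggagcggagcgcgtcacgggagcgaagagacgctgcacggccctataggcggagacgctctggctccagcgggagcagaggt
Izumo1r, chr9:14903768-14904017, minus strand: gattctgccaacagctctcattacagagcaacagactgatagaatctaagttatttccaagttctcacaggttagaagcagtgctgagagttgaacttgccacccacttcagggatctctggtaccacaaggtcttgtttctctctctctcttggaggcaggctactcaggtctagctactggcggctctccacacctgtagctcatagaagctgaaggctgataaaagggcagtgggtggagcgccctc

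The GCGTG core stood 55 and 53 bases before the first and second Foxp3 start and 185 bases before that of Gpr83, counted to the first base of the match. It also occurs once each in the windows of Tgfb1 and Nt5e, and 28.2% of all 32851 RefSeq promoter windows of 250 bases hold it. The STAT motif was found 139 bases before the second Foxp3 start and in 7.02% of all windows. Searches for TGACNNNGC, the core of the antioxidant response element bound by Nrf2, and for GTAAACA, a FOXO motif, on both strands gave no match in the 8 windows of the members. They occur in 10.2% and 3.17% of all windows, and at such shares an absence from 8 windows says little. The SMAD motif CAGAC was found in the windows of the first Foxp3 start, Gpr83, Izumo1r, Nt5e and Ebi3, and in 42.2% of all windows. The RUNX motif TGTGGT was found only in that of Izumo1r, and in 14.0% of all windows. The first Foxp3 window holds 37.6% G and C, against 66.8% for Gpr83, 50.0% for Izumo1r and a median of 52.4% over all windows. These matches are letters in a window, and binding was not measured.

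Ikzf4 and Ikzf2 belong to the Ikaros family, zinc finger proteins that pair with each other. Ikzf4 (chromosome 10, 128630843 to 128645991, minus strand) encodes Eos, a partner through which FOXP3 represses genes. It was at 7.54 and 3.83 FPKM in control replicates 1 and 2 and at 0.665 and 0.902 in DMF replicates 1 and 2, from 801, 320, 73 and 101 reads. The groups did not overlap, although the controls lay far apart. On the log2 scale its difference was -1.85 ± 0.34 (SE, n = 2 per group, limma adjusted p = 0.259), the 68th lowest of the tested genes. Without control replicate 1 it was -1.44 (adjusted p = 0.00910) and without control replicate 2 it was -2.26 (adjusted p = 0.0248), in fits that called 61.0% and 8.28% of all tested genes. It did not pass without DMF replicate 1 or 2 (adjusted p = 0.50 and 0.332). Ikzf2 (chromosome 1, 69531214 to 69687245, minus strand) encodes Helios, found in most regulatory T cells that arise in the thymus. It was at 1.22, 0.692, 0.790 and 0.719 FPKM in the 4 libraries, controls first. The DMF values lie between the controls, so the groups overlap. Its difference of -0.14 became 0.052 once control replicate 1 was dropped and -0.34 once control replicate 2 was. With the gene length trend removed it was -0.45, and both DMF libraries then lay below both controls, as they also did under quantile normalization.

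The other family members were measured from the same list of 5 genes. Ikzf1, which encodes Ikaros itself and is expressed across lymphocytes, was at 107 and 63.4 FPKM in controls and at 94.2 and 90.6 in DMF libraries. Ikzf3, which encodes Aiolos, was at 9.93 and 3.18 FPKM in controls and at 6.77 and 6.76 in DMF libraries. Ikzf5 was below the filter, at 0.412 to 0.891 FPKM in the 4 libraries. Of the 3 family members tested, only Ikzf4 lay below both controls, as did 26.8% of all tested genes, and none passed the test. Relative to Ikzf1 in the same library, Ikzf4 came to 7.05% and 6.05% in the controls and 0.706% and 0.996% in the DMF libraries. That ratio holds the controls closer together than the levels do. The ratio of Ikzf2 to Ikzf1 was 1.14% and 1.09% in controls and 0.839% and 0.794% in DMF libraries, also without overlap. Relative to Cd4, however, Ikzf2 came to 0.954% and 0.662% in controls and 0.768% and 0.717% in DMF libraries, which overlap.

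Lrrc32 (chromosome 7, 98489283 to 98502181, plus strand; ENSMUSG00000090958) had the largest difference of the set. It encodes GARP, the leucine-rich repeat protein on which regulatory T cells, platelets and some other cells display latent TGF-beta. Lrrc32 was at 6.96 and 5.51 FPKM in control replicates 1 and 2 and at 0.385 and 0.114 in DMF replicates 1 and 2. The reads behind these values were 578, 360, 33 and 10. Both controls lay more than 10 times above both DMF libraries. On the log2 scale the difference was -2.53 ± 0.24 (SE, n = 2 per group, limma adjusted p = 0.160), the 17th lowest of 12166 tested genes. It was -2.39 without control replicate 1 (adjusted p = 0.00516) and -2.68 without control replicate 2 (adjusted p = 0.0268), where 61.0% and 8.28% of all tested genes were called. Without DMF replicate 1 or 2 it did not pass (adjusted p = 0.0731 and 0.122). The DMF libraries differed from each other as well, with exact Poisson 95% intervals of 0.265 to 0.540 and 0.0548 to 0.210 FPKM for counting error only.

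Tgfb1 (chromosome 7, 25687002 to 25705077, plus strand) encodes TGF-beta1, the cargo of GARP and an inducer of Foxp3. It was at 57.5 and 79.0 FPKM in control replicates 1 and 2 and at 60.8 and 58.9 in DMF replicates 1 and 2. Both DMF libraries lie between the controls, and the difference was -0.17 ± 0.24 (SE, n = 2 per group, limma adjusted p = 0.724). It depended on which control was kept, at -0.40 without control replicate 1 (adjusted p = 0.00707, where 61.0% of all tested genes were called) and 0.058 without control replicate 2. Relative to Tgfb1 in the same library, Lrrc32 came to 12.1% and 6.98% in the controls and 0.633% and 0.194% in the DMF libraries. Nrros, which encodes the related anchor LRRC33, was at 8.94 and 11.7 FPKM in controls and at 9.26 and 11.5 in DMF libraries. Its ratio to Tgfb1 was 15.6% and 14.9% in controls and 15.2% and 19.6% in DMF libraries. Of these anchors of latent TGF-beta, the groups overlap for Nrros and stand apart for Lrrc32.

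**Figure D2:**
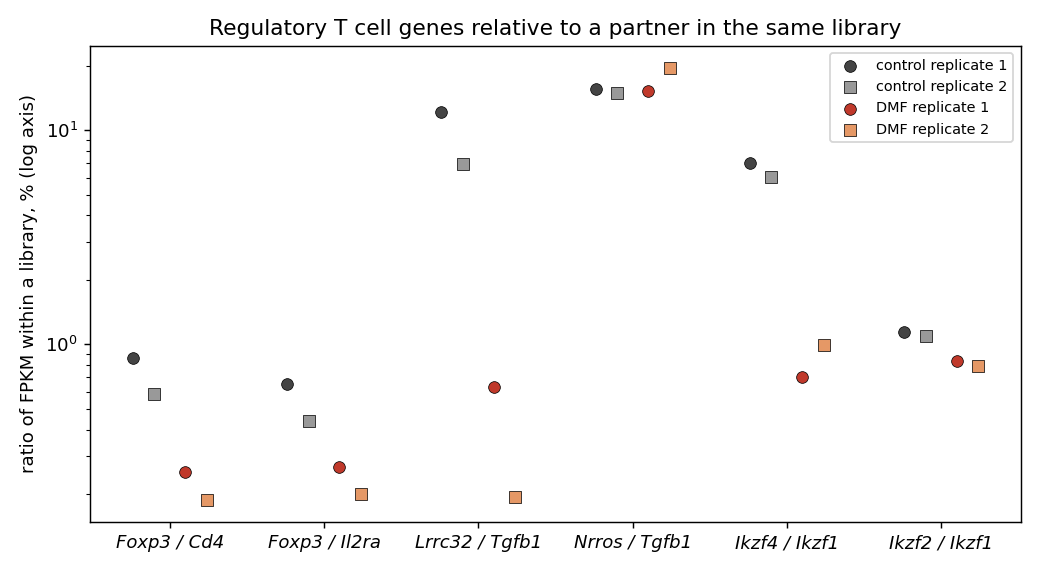
Ratio of the FPKM of a gene to that of a partner in the same library, in percent on a log axis; each point is a library. Lrrc32 relative to Tgfb1 lies at 12.1% and 6.98% in controls and below 1% in both DMF libraries, whereas Nrros relative to Tgfb1 lies at 14.9% to 19.6% throughout.

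The rest of the TGF-beta pathway was read from a list of 32 genes that includes Tgfb1 and Lrrc32. None of its 21 tested genes passed (limma, lowest adjusted p = 0.160). Of these, 4 lay entirely below the controls and 6 entirely above, against 26.8% and 26.4% of all tested genes. The median difference was -0.03. Smad2, Smad4, Smurf2 and Itgav were among those above. Smad4, the shared partner of receptor-activated SMADs, was at 17.5 and 12.6 FPKM in controls and 20.8 in each DMF library. Smad2, which the TGF-beta receptor phosphorylates, was at 15.9 and 14.5 FPKM in controls and 19.8 and 19.2 in DMF libraries. Itgav, the alpha chain of integrins that release active TGF-beta, was at 6.40 and 3.47 FPKM in controls and 7.05 and 7.59 in DMF libraries. Its partner Itgb8, which regulatory T cells use for that release, did not reach the filter and had 41 and 14 reads in controls and 80 and 101 in DMF libraries. Pmepa1, a target gene of TGF-beta signals, was lower with DMF, at 14.8 and 22.4 against 12.7 and 11.6 FPKM.

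Gpr83 and Izumo1r are cell surface genes that lie 15024 bp apart on chromosome 9 with no gene of the table between them, on opposite strands. Gpr83 (14860210 to 14870789, plus strand) encodes a G protein-coupled receptor enriched in regulatory T cells. It was at 7.97 and 7.10 FPKM in control replicates 1 and 2 and at 6.07 and 6.08 in DMF replicates 1 and 2. The DMF libraries were nearly equal and lay below both controls by a small margin. The difference was -0.27 ± 0.17 (SE, n = 2 per group, limma adjusted p = 0.561). Scaled to each library's total of recovered reads in place of the authors' library size, the DMF values of Gpr83 lay between the controls. On that scale 4 members in place of 5 lay below both controls. The count was 6 under quantile normalization, 7 with the gene length trend removed and 3 when scaled to the CD3 chain genes. The share of all tested genes was not counted under these settings.

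Izumo1r (14885814 to 14903949, minus strand) encodes folate receptor 4, known as JUNO on the egg, which is also carried by regulatory and anergic T cells. It was at 62.6 and 109 FPKM in control replicates 1 and 2 and at 66.1 and 62.8 in DMF replicates 1 and 2, so the groups overlap. Control replicate 2 alone was high. The difference of -0.35 ± 0.33 (SE, n = 2 per group, limma adjusted p = 0.615) was 0.041 without that library, and -0.75 without control replicate 1 (adjusted p = 0.00288, where 61.0% of all tested genes were called). Of the other folate receptors, Folr1 and Folr2 had at most 5 reads in any library. The folate carrier Slc19a1 was at 13.6 and 20.1 FPKM in controls and 20.3 and 20.9 in DMF libraries. Slc46a1, another folate transporter, was at 1.26 and 1.40 against 1.12 and 1.25 FPKM.

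Nt5e (chromosome 9, 88327197 to 88372092, plus strand) encodes CD73, the last step of the surface pathway from ATP to adenosine. It was at 3.74 and 2.08 FPKM in control replicates 1 and 2 and at 2.96 and 2.99 in DMF replicates 1 and 2, with the DMF libraries between the controls. The difference was 0.06 ± 0.28 (SE, n = 2 per group, limma adjusted p = 0.920), and -0.25 without control replicate 2. Entpd1, which encodes CD39, the enzyme before it in that pathway, had 3 to 11 reads in each library. In the list of 17 genes of extracellular ATP and adenosine, none of 11 tested passed (limma, lowest adjusted p = 0.196), and the median difference was -0.04. Of these 11, 4 lay below both controls and 1 above, against 26.8% and 26.4% of all tested genes. The 4 below were Dpp4, Adora2b, Adora2a and P2rx4. Adora2a, the main adenosine receptor of T cells, was at 33.7 and 40.9 FPKM in controls and 20.1 and 19.9 in DMF libraries. Adora2b, a related receptor, was at 2.35 and 2.41 against 0.237 and 0.232 FPKM. Dpp4, which encodes CD26, a surface protein that binds adenosine deaminase, was at 25.0 and 17.3 against 5.45 and 4.79 FPKM. Among other receptors of the list, P2rx7, a channel opened by ATP, overlapped at 4.86 and 2.71 against 3.66 and 3.42 FPKM.

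Ebi3 (chromosome 17, 55952640 to 55957022, plus strand) was at 4.64 and 7.03 FPKM in control replicates 1 and 2 and at 5.30 and 2.55 in DMF replicates 1 and 2, from 95, 113, 112 and 55 reads. It was the only member of which the DMF libraries were further apart than the controls in SD, 1.94 against 1.69 FPKM. The groups overlap, and the difference was -0.51 ± 0.37 (SE, n = 2 per group, limma adjusted p = 0.573). It was -0.92 and -0.095 without DMF replicates 1 and 2, and -0.76 and -0.25 without control replicates 1 and 2. With the gene length trend removed it was -0.17. The exons of Ebi3 share 270 of 1154 bp with Gm16712, a gene on the other strand, at 0.732 to 1.21 FPKM. Partner chains were close to absent. Il12a, which pairs with EBI3 in IL-35, had 0 reads in both controls and 3 and 9 in the DMF libraries, and Il27, which pairs with it in IL-27, had at most 3 reads in any library. A count of 0 is compatible with up to 3 reads. In the list of 12 such chains and receptors, which includes Ebi3, none of 7 tested passed (limma, lowest adjusted p = 0.326). Their median of -0.51, against -0.01 over all tested genes, is the value of Ebi3 itself and is no separate result. Of these 7, 3 lay below both controls and 1 above, against 26.8% and 26.4% of all tested genes. Those below were Il12rb2, Il6ra and Clcf1. Il12rb2, a receptor chain for IL-12, was at 9.49 and 1.40 FPKM in controls and 0.979 and 1.28 in DMF libraries, so that control replicate 1 alone was high. Il6ra, the receptor for IL-6, was at 13.0 and 7.92 against 5.08 and 5.58 FPKM, and Clcf1, a cytokine of the IL-6 family, at 15.3 and 13.0 against 7.78 and 6.63. Il6st, which encodes the shared chain gp130, lay above, at 5.19 and 2.15 against 5.37 and 5.44 FPKM.

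Capg (chromosome 6, 72544391 to 72562983, plus strand) encodes a gelsolin family protein that caps actin filaments, and it was the most abundant member. It was at 127 and 226 FPKM in control replicates 1 and 2 and at 111 and 110.0 in DMF replicates 1 and 2. Control replicate 1 lay close to the DMF libraries and control replicate 2 far above them. The difference was -0.62 ± 0.35 (SE, n = 2 per group, limma adjusted p = 0.561), -0.20 without control replicate 2 and -1.03 without control replicate 1 (adjusted p = 0.00145, where 61.0% of all tested genes were called). Relative to Cd4 in the same library, Capg came to 99.6% and 216% in controls and 108% and 110% in DMF libraries, which overlap. Gsn, which encodes gelsolin, was at 16.8 and 22.9 FPKM in controls and at 10.9 and 12.7 in DMF libraries. Of the 4 tested gelsolin family genes, Capg and Gsn lay below both controls, as did 26.8% of all tested genes. Flii and Svil overlapped, and none of the 4 passed the test.

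Among themselves, the members kept their order in the upper range and changed it in the lower one. Capg, Izumo1r and Tgfb1 led in both groups; the ranges of Izumo1r and Tgfb1 overlap in controls, and Capg lay above both. In controls Gpr83 followed, then Lrrc32, Ebi3 and Ikzf4, whose ranges overlap, that of Ikzf4 with Gpr83 as well, then Nt5e, and last Ikzf2 and Foxp3, which again overlap. In DMF libraries Ebi3 and Nt5e, with overlapping ranges, stood next after Gpr83. Ikzf4 and Ikzf2 came after them at 0.784 and 0.755 FPKM on average, and Lrrc32 and Foxp3 closed the order at 0.249 and 0.224, each pair with overlapping ranges. Lrrc32 thus went from the fifth to the ninth place in mean level.

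**Figure D3:**
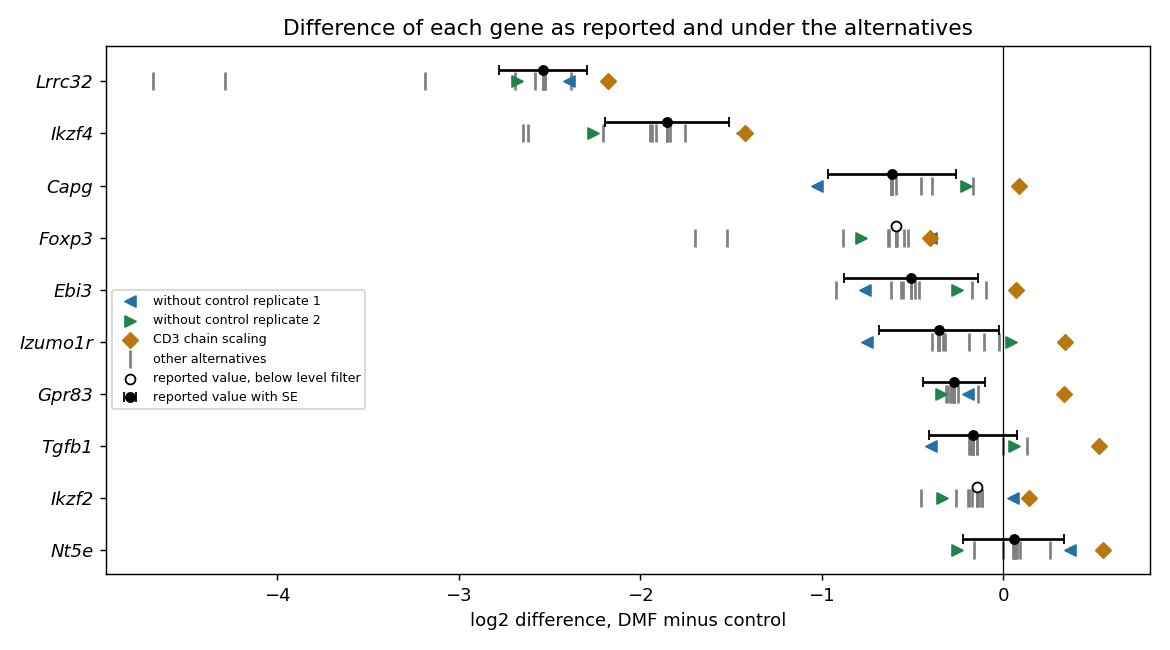
Difference on the log2 scale, DMF minus control, of each member as reported (black, with its SE; open circles for Foxp3 and Ikzf2, which lay below the level filter) and under the 15 alternatives. Lrrc32, Ikzf4 and Foxp3 lie below 0 under every alternative run for them, and Izumo1r, Tgfb1, Ikzf2 and Nt5e lie on both sides when controls are left out in turn.

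Other surface and secreted proteins of regulatory T cells were read from a list of 30 genes, many of which activated T cells also express. Of the 24 tested, 15 lay entirely below the controls and 3 entirely above, against 26.8% and 26.4% of all tested genes. The median was -0.59, against -0.01 over all tested genes, and none passed (limma, lowest adjusted p = 0.188). Penk, which encodes the opioid precursor proenkephalin, had the lowest value of the list, at 100.2 and 177 FPKM in controls and 17.9 and 18.0 in DMF libraries (-2.83 on the log2 scale, limma adjusted p = 0.188), the 6th lowest of all tested genes. The receptor chain Il2ra was at 170 and 140.2 FPKM in controls and at 97.1 and 94.2 in DMF libraries, and Il2rb at 84.5 and 80.4 against 39.3 and 37.6. Ctla4, the inhibitory receptor through which regulatory T cells strip costimulatory ligands, was at 85.0 and 95.3 against 60.8 and 58.7 FPKM. Cxcr3, a chemokine receptor of Th1 cells and of the regulatory T cells that accompany them, was at 4.63 and 7.92 against 1.70 and 1.49 FPKM. In the other direction stood Cd83, Tigit and Plagl1. Cd83, a surface protein of activated lymphocytes, was at 9.06 and 11.9 FPKM in controls and 21.5 and 19.6 in DMF libraries. Il10 had 7 reads in each control and 2 and 18 in the DMF libraries.

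Transcription factors that act on the Foxp3 gene or with its protein lay in both directions, in shares near those of all tested genes. Of 36 listed and tested, 10 lay below both controls and 12 above, against 26.8% and 26.4% of all tested genes. The median was 0.05, and none passed (limma, lowest adjusted p = 0.196). Nr4a1, a nuclear receptor induced by antigen receptor signals that activates Foxp3, was at 40.0 and 47.6 FPKM in controls and 14.6 and 13.6 in DMF libraries. Satb1, a chromatin organiser that FOXP3 represses, was at 48.7 and 35.2 against 22.2 and 21.6 FPKM. Tcf7, which encodes TCF-1, was at 325 and 271 against 159 and 155 FPKM, and Runx3, which binds the Foxp3 locus with CBF-beta, at 17.9 and 13.4 against 6.39 and 6.54. These 4, taken by the smallest p of the list, were all lower with DMF. The 12 above both controls included Nfatc1, at 45.2 and 28.8 against 66.9 and 64.7 FPKM. They also included Cbfb, which encodes CBF-beta, at 43.0 and 38.8 against 52.7 and 57.4. Stat5a, through which interleukin 2 sustains Foxp3, was at 50.5 and 44.9 against 37.0 and 37.7 FPKM, while Stat5b overlapped at 46.3 and 29.5 against 35.3 and 33.9.

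**Figure D4:**
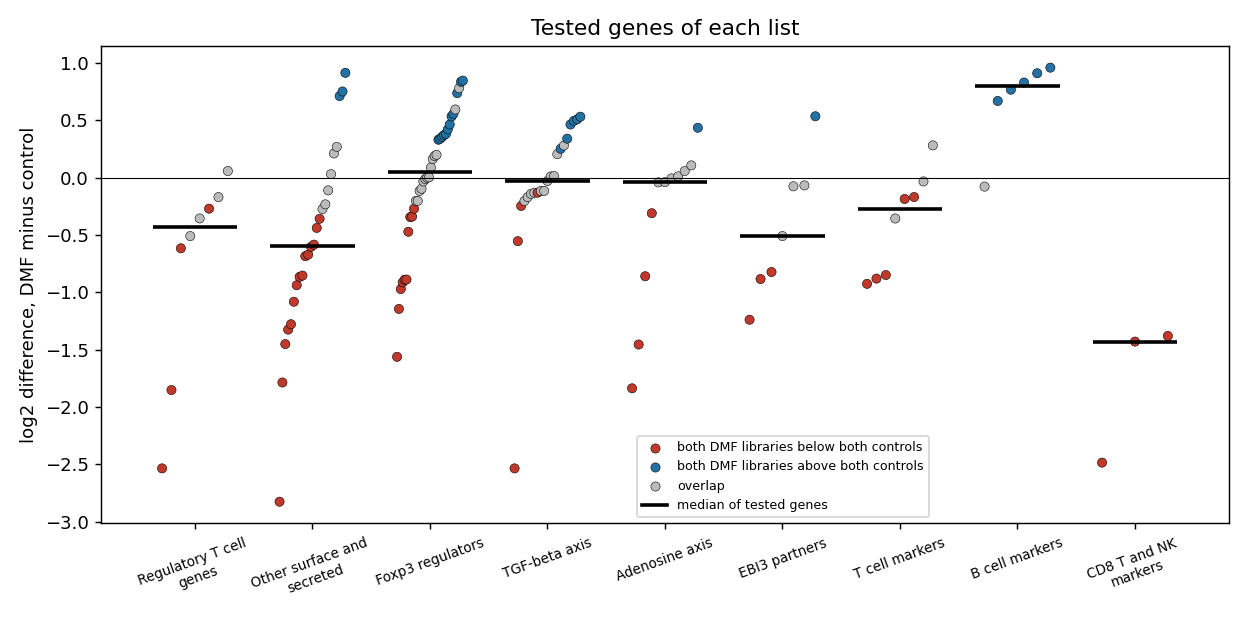
Difference on the log2 scale, DMF minus control, of the tested genes of each list; each point is a gene, coloured by whether the DMF libraries lie entirely below or above the controls, and black lines are medians. Other surface and secreted genes have a median of -0.59, Foxp3 regulators of 0.05 and B cell markers of 0.80.

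Levels of markers of T cells and of other cells also lay apart between the groups, although no marker passed the test (limma, lowest adjusted p = 0.196, for Batf3). Over all 26241 genes with a read, 19.7% lay below both controls and 20.6% above. Of 8 T cell markers, all of them tested, 5 lay below both controls and 0 above, against 26.8% and 26.4% of all tested genes. Their summed level was 1300 and 1840 FPKM in control replicates 1 and 2 and 1285 and 1297 in DMF replicates 1 and 2, so that control replicate 2 alone was high. Cd5, Cd28 and Lat overlapped between the groups. Cd3d was at 144 and 338 FPKM in controls and 115 and 117 in DMF libraries, Cd3g at 55.3 and 99.6 against 40.8 and 40.8, and Cd247, which had the smallest p of the list, at 23.0 and 31.4 against 14.6 and 13.7. The other chains lay closer, with Cd4 at 128 and 105 against 103 and 100.3 FPKM and Cd3e at 48.2 and 57.3 against 47.3 and 46.0. Of 11 B cell markers, 10 lay above both controls and 0 below, and their summed level was 11.8 and 15.4 FPKM in controls and 28.4 and 27.9 in DMF libraries. Of 7 CD8 T and NK cell markers, 5 lay below both controls and the NK genes Ncr1 and Klrb1c had 0 reads in all libraries; the sum was 13.2 and 21.7 against 3.04 and 2.96 FPKM. The 10 myeloid markers summed to 9.17 and 12.8 FPKM in controls and 9.17 and 7.22 in DMF libraries, with 5 below both controls and 2 above. The 8 dendritic cell markers summed to 10.9 and 27.0 against 1.27 and 1.27 FPKM, in controls nearly all of it Batf3, which alone reached the level filter. That sum is therefore mainly a reading of Batf3 and not of dendritic cells. Of the 8, 3 lay below both controls and 1 above, with Clec9a at 0 reads in all libraries. The 7 platelet markers summed to 12.4 and 7.73 against 4.17 and 4.71 FPKM, in controls most of it Itgb3, which T cells also express, with Gp1bb at 0 reads in all libraries and Pf4 at 3 to 9 reads. The part of these shifts in the levels of Lrrc32, Ikzf4, Foxp3 and the other members was not tested.

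Scaled to the CD3 chain genes Cd3d, Cd3e, Cd3g and Cd247, all genes shifted upwards with DMF, to a median of 0.57 over tested genes. On that scale Lrrc32, Ikzf4 and Foxp3 still lay lower, at -2.18, -1.42 and -0.40, and both their DMF libraries lay below both controls. The remaining 7 members had positive differences of 0.071 to 0.55, below that median, and Izumo1r, Nt5e, Tgfb1 and Capg then lay above both controls. The shares of all tested genes above or below both controls on that scale were not counted, so these positions are no result about the members.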

How the data were processed

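RNA-seq libraries of 2 control and 2 DMF cultures were compared. The deposited file holds FPKM for 54532 genes together with their names, positions and lengths, per the file headers. The build mm8 and edgeR, whose role is not stated, come from the submitters' processing notes; the aligner and counter: not given in the sources used here. Of 54495 gene identifiers found in GENCODE M21 (GRCm38), 98.3% have the same position in the table, so positions are given as GRCm38. FPKM times gene length gave whole multiples of 1 step per library for 100% of values (within 0.01), from which reads were recovered; at least 99.1% of each library's reads fall in tested genes. Intervals and limits from reads cover counting error only.

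The test was limma 3.58.1 in R 4.3.3 (lmFit, eBayes with a trend) on log2(FPKM + 1), DMF minus control and two-sided, over 12166 genes whose mean FPKM reached 1, with Benjamini-Hochberg adjustment over all of them and a threshold of 0.05. No count test was the main test because the unit is FPKM. Alternatives, 15 in number, changed the pseudocount, filter, scaling, variance model, gene length trend, replicate block or library set, or used limma voom on recovered reads. The count of members below both controls was added to them after the data were seen.

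Members and lists were chosen with earlier results of these data known, and no p is adjusted over a list. Named genes are all members, fixed partner genes and of each list up to 4 tested genes by smallest p. Further genes (Flicr, Tigit, Plagl1, Stat5a, Stat5b, Nfatc1, Cbfb, P2rx7, Folr1, Folr2, Gm16712, and markers at 0 reads) were named after their values were seen.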

Additional observations from a re-analysis of the deposited data

How the results depend on the processing

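Leaving out each library in turn, with a lone library assumed to vary like the others, gave 6 to 7420 genes called over all tested genes, 0 to 5 members called, a member median of -0.76 to -0.25 on the log2 scale and 5 to 8 members below the controls. With 1 control left, lying below it is a weaker condition than lying below both. Ikzf2 ran from -0.34 without control replicate 2 to 0.052 without control replicate 1. The 5 members called without control replicate 1 were Lrrc32, Ikzf4, Capg, Izumo1r and Tgfb1; Lrrc32 and Ikzf4 were called without control replicate 2. Without control replicate 2 the sign turned for Izumo1r (0.041, with -0.75 without control replicate 1), Tgfb1 (0.058, with -0.40) and Nt5e (-0.25, with 0.37). With the replicate number as a block, 552 genes and 2 members, Lrrc32 and Ikzf4, were called; the numbers are shared by label only, and deviations of same-numbered libraries had a correlation of -0.02 over genes, so the block was not used. CD3 chain scaling moved the median of all tested genes to 0.57 and the member median to 0.21, left 3 members below both controls, and turned Ikzf2 (0.14), Gpr83 (0.34), Izumo1r (0.34), Tgfb1 (0.53), Ebi3 (0.071) and Capg (0.085). Quantile normalization turned Tgfb1 (0.13) and removal of the gene length trend turned Nt5e (-0.16). The cause of these changes was not tested, and the share of all tested genes below the controls was not counted under any alternative. All other alternatives, voom included, called 0 genes; voom had 1183 at an unadjusted p under 0.05 and moved the median of all genes to 0.15. Foxp3, Il12a, Entpd1 and Il10 rest on few reads, which limits what can be said of their levels.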
